A study of Mus musculus with 16 samples.

Results

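The genes described here are 10 that encode the machinery of microRNA processing and silencing: Dgcr8, Xpo5, Dicer1, Tarbp2, Eif2c1, Eif2c2, Eif2c3, Tnrc6a, Tnrc6b and Tnrc6c. They were taken by name from the 26127 genes of the deposited expression table, and the rule that takes them uses names only, not measured values. Each name matched 1 row, and all 10 passed the filter on low values together with 12892 genes in all. Eif2c1, Eif2c2 and Eif2c3 are the older symbols of the Argonaute genes Ago1, Ago2 and Ago3.

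Mouse embryonic stem cells (ESCs) in culture gave total RNA that was freed of ribosomal RNA and sequenced, with genotypes labelled Wildtype (WT, 8 libraries), Dnmt1-/- (Dnmt1 KO, 4 libraries) and Dicer/Dnmt1 -/- (Dicer/Dnmt1 KO, 4 libraries). Dnmt1 encodes the methyltransferase that maintains DNA methylation through cell division, and the study asked what Dicer contributes when that methylation is lost. All 16 libraries are labelled with the background strain E14, while the methods describe a C57BL/6 parent line carrying loxP sites in Dnmt1. According to the methods, conditional deletion used a Cre activated by 4-hydroxytamoxifen and edited lines were grown from single colonies after CRISPR/Cas9. The labels give neither the day after deletion nor whether Dicer was lost together with Dnmt1 or before it. Each library carries a number and a letter A or B, neither of which is explained in the labels, so that p-values measure the spread between libraries, which may be technical in part.

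MicroRNAs are cut from long nuclear transcripts by the Microprocessor, in which DGCR8 holds the hairpin for the nuclease DROSHA. Exportin-5, the product of Xpo5, carries the hairpin to the cytoplasm, where DICER and its partner TRBP (Tarbp2) cut it to a short duplex. An Argonaute protein keeps 1 strand and finds target messengers through the seed, bases 2 to 8 of the microRNA, and a GW182 protein (Tnrc6a, Tnrc6b or Tnrc6c) bound to Argonaute recruits the enzymes that shorten the poly(A) tail and remove the cap. In mouse ESCs the miR-290 and miR-17 families are among the best known products of this pathway.

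Mature sequences of both families, from RefSeq on GRCm38.p6, are shown since their seeds were searched for in the messengers of the 10 genes (seed in capitals). The microRNAs themselves were not measured in these libraries.
mmu-miR-291a-3p: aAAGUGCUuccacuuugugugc
mmu-miR-294-3p: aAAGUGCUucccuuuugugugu
mmu-miR-295-3p: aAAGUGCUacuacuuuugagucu
mmu-miR-17-5p: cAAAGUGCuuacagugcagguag
mmu-miR-20a-5p: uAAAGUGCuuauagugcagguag
mmu-miR-93-5p: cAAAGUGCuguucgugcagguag
The first 3 share the seed AAGUGCU and the last 3 the seed AAAGUGC, which is the same run of letters shifted by 1 base.

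Values are log2 RPM as deposited, that is log2 of the reads per 1000000 reads of the library, and each adjusted p-value comes from limma over all 12892 genes. The libraries held 31.5 to 52.5 M reads, and the 10 genes had between 452 (Dicer1) and 5591 reads (Eif2c2) in any library. Counting error was not separated from the spread between libraries. The WT libraries were not alike. Dnmt1 itself measured 5.69 in the library labelled WT 4A and 5.55 in WT 4B, against 7.40 to 7.66 in WT numbers 1 to 3 and 4.17 to 4.64 in the knockouts. Ribosomal protein genes took 10.7% and 11.2% of gene reads in WT 4A and 4B and 5.49% to 8.86% in the other 14 libraries. Long transcripts were also lower in WT 4A and 4B: the rank correlation across genes between transcript length and a library's deviation from the mean of all libraries was -0.49 and -0.51 there, -0.31 to 0.21 in the other WT libraries, -0.30 to 0.15 for Dnmt1 KO and 0.31 to 0.36 for Dicer/Dnmt1 KO. Most of the 10 genes have long transcripts. For all but Dicer1, changes without WT number 4 and after removal of this trend are given for Dicer/Dnmt1 KO against WT. For Dnmt1 KO against WT, changes without WT number 4 are given for most of the 10 genes. Changes of the other pathway genes named below are given without either. All 10 ESC markers were measured, with a sum of 2078 to 3471 RPM (WT), 1896 to 2535 RPM (Dnmt1 KO) and 2128 to 2453 RPM (Dicer/Dnmt1 KO). Against WT 3 of them were lower in Dnmt1 KO (Sox2, Nanog and Fgf4), and in Dicer/Dnmt1 KO 2 were lower (Utf1 and Tdgf1) and 1 higher (Sall4). By limma at adjusted p under 0.05, 23.5% of all tested genes were higher and 17.5% lower in Dnmt1 KO. For Dicer/Dnmt1 KO these shares were 31.9% and 30.1%. Of 10 feeder fibroblast markers 8 passed the filter, and 5 of them were higher in Dnmt1 KO than in WT and 7 in Dicer/Dnmt1 KO. Their summed level was 45.4 to 79.8 RPM (WT), 106 to 128 RPM (Dnmt1 KO) and 99.7 to 168 RPM (Dicer/Dnmt1 KO), while the fibroblast genes Dcn and Lum were near 0, with 0.513 RPM as the highest value. The sum of 6 primitive endoderm markers was 12.1 to 21.4, 40.1 to 55.0 and 19.9 to 27.1 RPM for the same groups. All 6 were higher in Dnmt1 KO than in WT, and 3 in Dicer/Dnmt1 KO. In Dicer/Dnmt1 KO against Dnmt1 KO 4 of the 6 were lower, 4 ESC markers were higher and 2 lower, and no feeder marker passed. There 16.9% of all tested genes were higher and 19.4% lower. The part of these markers in the results was not tested, and in bulk RNA a shift in cell numbers and a shift in RNA per cell cannot be told apart.

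**Figure D1:**
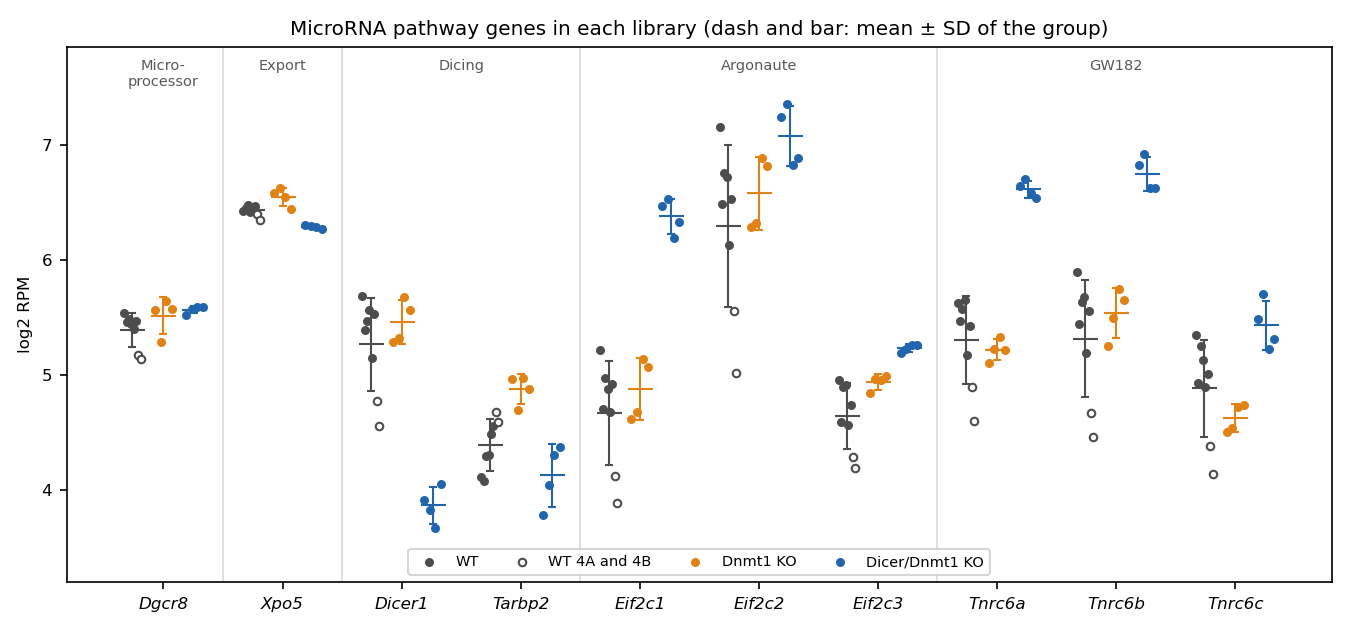
Level of the 10 genes in each of the 16 libraries on the log2 RPM axis, grouped by role, with the dash and bar giving the mean ± SD of each genotype (8 WT libraries, 4 of each knockout). The Dicer/Dnmt1 KO points of Eif2c1, Tnrc6a and Tnrc6b lie above every point of the other groups, and WT 4A and 4B (open circles) are the lowest WT libraries for 9 of the 10 genes.

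Dicer1 was examined first because it was the gene deleted, so its level checks the labels and is not a finding. Dicer1 (ENSMUSG00000041415, NCBIM37 chromosome 12, 105925952 to 105990162, minus strand, 27 exons) encodes the ribonuclease that cuts precursors to their mature length. The Dicer/Dnmt1 KO libraries measured 3.92, 3.83, 3.68 and 4.06 log2 RPM (1A, 1B, 2A and 2B), the Dnmt1 KO libraries 5.28, 5.32, 5.68 and 5.56, and the WT libraries 4.56 to 5.68 with a median of 5.44. All 4 libraries of Dicer/Dnmt1 KO lay below every other library. On the linear scale the mean RPM in Dicer/Dnmt1 KO was 36.9% of that in WT and 33.1% of that in Dnmt1 KO, so reads from the gene remained. The values are sums over a gene, and the deleted exons are not given in the sources used here, so reads of an undeleted part and of undeleted cells cannot be told apart.

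With Dnmt1 lost alone, 1 of the 10 genes changed. Tarbp2 rose, and none fell, where 23.5% of all tested genes rose and 17.5% fell (limma, adjusted p under 0.05). Tarbp2 (chromosome 15, 102348623 to 102354107, plus strand) encodes TRBP, which binds double-stranded RNA and positions it for DICER. It measured 4.97, 4.70, 4.97 and 4.88 in Dnmt1 KO against 4.08 to 4.68 in WT with a median of 4.40. The groups did not overlap, although the lowest Dnmt1 KO library (1B) was only just above the highest WT library (4A). The log2 change was 0.49 (SE 0.13, limma adjusted p = 0.00472) and 0.57 without WT number 4 (adjusted p = 0.0008). With libraries A and B of each number averaged it was no longer past the threshold (limma adjusted p = 0.085), as was true of all 10 genes in a setting where 17.7% of genes were called in either direction.

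The other 9 genes did not pass in Dnmt1 KO, and for most the direction rested on the choice of WT libraries. Eif2c1, Eif2c2, Tnrc6b and Dicer1 differed from WT by 0.19 to 0.28, and by -0.05 to -0.01 once WT number 4 was left out. The GW182 genes Tnrc6a and Tnrc6c differed by -0.08 and -0.26 over all libraries. Without WT number 4 they fell by 0.27 (limma adjusted p = 0.0153) and 0.47 (adjusted p = 0.00143). The Dnmt1 KO libraries of Tnrc6c, at 4.51, 4.54, 4.72 and 4.74, lay below the 4.89 to 5.35 of WT numbers 1 to 3 and above the 4.38 and 4.14 of WT 4A and 4B. Leaving out WT 4B alone was enough for Tnrc6c to pass (-0.37, limma adjusted p = 0.044). Tnrc6c was also called lower with the length trend removed and all WT libraries kept. Eif2c3, with a difference of 0.29 (limma adjusted p = 0.0632), passed when WT 1A, 2A or 2B was left out (0.33 to 0.34, adjusted p = 0.0262 to 0.0402).

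When Dicer1 and Dnmt1 were both lost, the Argonaute and GW182 genes were higher than in WT. Of the 10 genes 6 rose, namely Eif2c1, Eif2c2, Eif2c3, Tnrc6a, Tnrc6b and Tnrc6c, and 2 fell, Dicer1 and Xpo5, where 31.9% of all tested genes rose and 30.1% fell. The median change of the 10 genes was 0.57 on the log2 scale beside 0.02 over all tested genes. The 6 that rose have transcripts of 7278 to 17043 bases. Among tested genes 53.4% (6000 to 8000 bases), 57.5% (8000 to 12000) and 69.0% (above 12000) rose. With the length trend removed only Eif2c1, Tnrc6a and Tnrc6b of these 6 were still higher by the test. For that setting the share of all genes is not given. With A and B averaged, 5 of the 10 passed (Eif2c1, Eif2c3, Tnrc6a and Tnrc6b higher, Dicer1 lower), where 39.8% of genes were called in either direction. Dicer/Dnmt1 KO was also set against Dnmt1 KO, which differs from it by label in Dicer. By the methods the Dicer lines were edited from the Dnmt1 line, and the day is not labelled. Loss of Dicer1 and differences of line or day therefore cannot be told apart, here or against WT. Against Dnmt1 KO 4 genes rose (Eif2c1, Tnrc6a, Tnrc6b and Tnrc6c) and 3 fell (Dicer1, Tarbp2 and Xpo5), where 16.9% of all tested genes rose and 19.4% fell. With A and B averaged 5 of the 10 passed (Eif2c1, Tnrc6a, Tnrc6b, Dicer1 and Tarbp2), where 9.50% of genes were called. Dicer1 enters the median and the counts of both comparisons. As the deleted gene, its fall was set by the design and is not a finding. Both comparisons use the same Dicer/Dnmt1 KO libraries, and those of Dnmt1 KO and Dicer/Dnmt1 KO with WT use the same WT libraries, so their values are set side by side and are not independent.

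**Figure D2:**
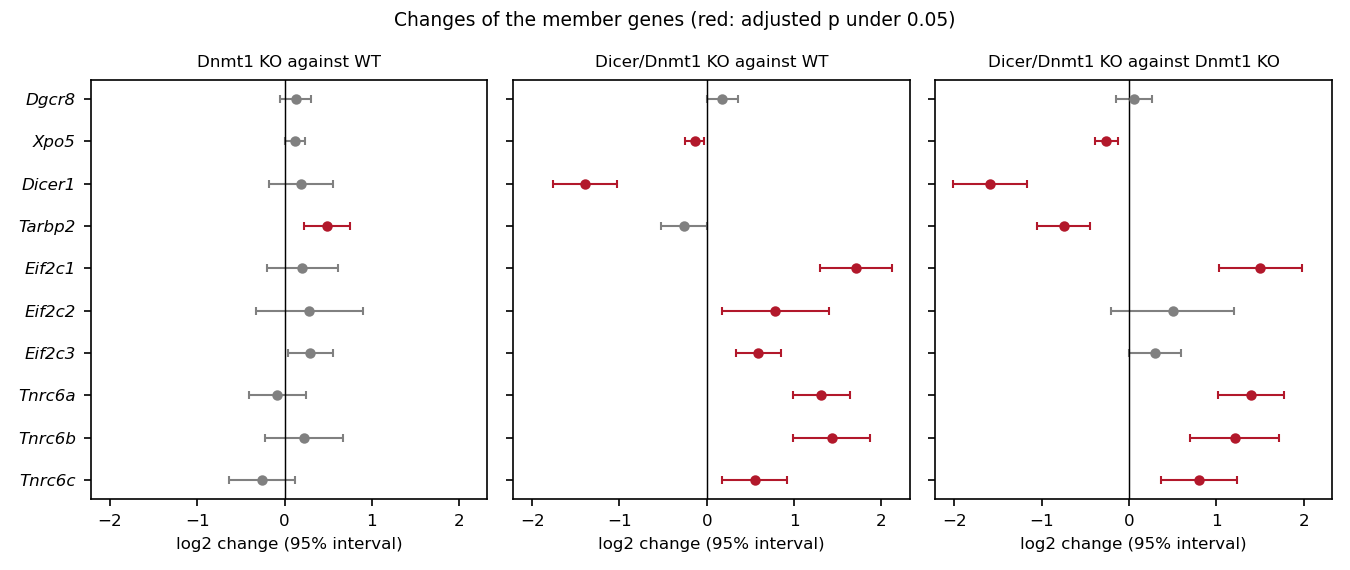
Difference between group means of each gene on the log2 scale with its 95% interval from limma, for each comparison, red where the adjusted p-value was under 0.05. In both comparisons of Dicer/Dnmt1 KO the intervals of Eif2c1, Tnrc6a and Tnrc6b lie above 0.5, and in Dnmt1 KO against WT the interval of Tarbp2 is red and above 0.2.

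Among the early steps, Dgcr8 (chromosome 16, 18254041 to 18289342, minus strand) did not pass the test in any comparison. Dicer/Dnmt1 KO lay at 5.52 to 5.59, Dnmt1 KO at 5.28 to 5.64 and WT at 5.14 to 5.54, and the 3 groups overlapped. Its change was 0.18 against WT (95% interval 0.00 to 0.36, limma adjusted p = 0.0755) and 0.05 against Dnmt1 KO (interval -0.15 to 0.26). Without WT 1A the difference from WT was 0.20 and passed (limma adjusted p = 0.0469), while it was 0.10 without WT number 4 and 0.02 with the length trend removed (adjusted p = 0.206 and 0.791). Exons of Trmt2a on the opposite strand overlap those of Dgcr8, and Mir1306 lies within an exon. AC084822.2 overlaps exons of Dgcr8 on the same strand, so reads there could belong to either gene. The libraries were stranded per the methods, but whether genes were counted by strand is not given in the sources used here.

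Xpo5 (chromosome 17, 46339804 to 46379248, plus strand) encodes the exporter of hairpins and varied little between libraries of a group. The Dicer/Dnmt1 KO libraries were at 6.31, 6.30, 6.29 and 6.27, all below the WT range of 6.35 to 6.48 and the Dnmt1 KO values of 6.58, 6.62, 6.54 and 6.44. The change was small, -0.14 (SE 0.05, limma adjusted p = 0.0309) against WT and -0.26 (SE 0.06, adjusted p = 0.00363) against Dnmt1 KO. Neither passed with A and B averaged (limma adjusted p = 0.297 and 0.188), and the call against WT was lost when any 1 of the 4 Dicer/Dnmt1 KO libraries was left out (adjusted p = 0.0554 to 0.0748). Without WT number 4 the change against WT was -0.16 (limma adjusted p = 0.0167), and with the length trend removed -0.20 (adjusted p = 0.00206).

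Tarbp2 differed between the knockouts. In Dicer/Dnmt1 KO it measured 3.78, 4.04, 4.31 and 4.38, all below the Dnmt1 KO libraries, with 2 below the WT range and 2 inside it. It fell by 0.75 against Dnmt1 KO (SE 0.14, limma adjusted p = 0.000696, and 0.0476 with A and B averaged). Against WT the difference was -0.26 (limma adjusted p = 0.077), and it passed without WT 1A (-0.30), WT 1B (-0.31) or Dicer/Dnmt1 KO 2B (-0.35) and with quantile normalization (-0.33), median centring (-0.33) or WT numbers 3 and 4 only (-0.45). It was smaller, and did not pass, without WT number 4 (-0.18), with WT numbers 1 and 2 only (-0.07) and with the length trend removed (-0.20), and single libraries left out gave -0.35 to -0.15. Prkra, which encodes PACT, the other double-stranded RNA binding partner of DICER, was lower than WT in both knockouts, by 0.72 in Dnmt1 KO (limma adjusted p = 0.00119) and 0.80 in Dicer/Dnmt1 KO (adjusted p = 0.000253), and the knockouts differed from each other by -0.08 (adjusted p = 0.746).

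Eif2c1 moved most among the Argonaute genes, which encode the proteins that carry the microRNA. Eif2c1 (ENSMUSG00000041530, chromosome 4, 126112256 to 126145878, minus strand, 19 exons) measured 6.47, 6.53, 6.19 and 6.33 in Dicer/Dnmt1 KO and 4.62, 4.68, 5.14 and 5.07 in Dnmt1 KO. WT ran from 3.89 to 5.22 with a median of 4.79. The lowest Dicer/Dnmt1 KO library was nearly 1 unit above the highest of the other 12, WT 1A. Against WT Eif2c1 rose by 1.71 (SE 0.19, 3.27-fold, limma adjusted p = 1.05e-06), and against Dnmt1 KO it rose 2.83-fold (log2 interval 1.03 to 1.98, limma adjusted p = 7.52e-05). Without WT number 4 the change against WT was 1.48, and with the length trend removed it was 1.34.

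Eif2c2, the Argonaute whose protein can itself cut a fully paired target, was less clear. Its Dicer/Dnmt1 KO libraries measured 7.24, 7.35, 6.83 and 6.89, the Dnmt1 KO libraries 6.29, 6.32, 6.89 and 6.82, and WT spread over more than 2 units, from 5.02 in WT 4B to 7.15 in WT 1A. Number 2 of both knockouts overlapped, and WT 1A lay within the Dicer/Dnmt1 KO range. It rose by 0.78 against WT (SE 0.29, limma adjusted p = 0.0265), which became 0.45 without WT number 4 (adjusted p = 0.028). That call was lost with A and B averaged (limma adjusted p = 0.123), with WT numbers 1 and 2 as the only WT libraries (change 0.30, adjusted p = 0.13) and with the length trend removed (0.38, adjusted p = 0.108). It was lost as well without Dicer/Dnmt1 KO 1A (0.73, limma adjusted p = 0.0706) or 1B (0.69, adjusted p = 0.0832). Against Dnmt1 KO the difference was 0.50 (limma adjusted p = 0.257, and 0.034 in a fit without WT number 4, which enters that comparison only through the shared spread).

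Eif2c3 (chromosome 4, 126008948 to 126106800, minus strand) lies beside Eif2c1, overlaps exons of Gm17553 on the opposite strand and has a transcript of 15595 bases. It measured 5.20, 5.22, 5.26 and 5.26 in Dicer/Dnmt1 KO, above the 4.84 to 4.99 of Dnmt1 KO and the 4.19 to 4.96 of WT. The rise of 0.59 against WT (SE 0.12, limma adjusted p = 0.000506) stood beside a median change of 0.60 over the 116 tested genes with transcripts above 12000 bases. Without WT number 4 the change was 0.46 (limma adjusted p = 0.000121), and with the length trend removed -0.05 (adjusted p = 0.583). The difference of 0.30 from Dnmt1 KO did not pass (limma adjusted p = 0.112, and 0.0121 in the fit without WT number 4). Eif2c4, the fourth gene of the family, was low, with 0.49 to 1.26 over the 16 libraries and no call in the 3 comparisons.

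Summed per kb of the longest transcript, the 4 Argonaute genes came to 16.3 ± 5.74 RPM per kb for WT (SD, n = 8), 18.4 ± 3.40 for Dnmt1 KO (n = 4) and 31.2 ± 4.16 for Dicer/Dnmt1 KO (n = 4). These sums and shares were not tested. The share of Eif2c1 in this sum was 20.4% to 27.3% in WT, 22.1% to 22.3% in Dnmt1 KO and 35.5% to 38.7% in Dicer/Dnmt1 KO, without overlap. Eif2c2 stayed the largest part, with a mean share of 64.4% (WT), 65.4% (Dnmt1 KO) and 54.3% (Dicer/Dnmt1 KO).

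**Figure D3:**
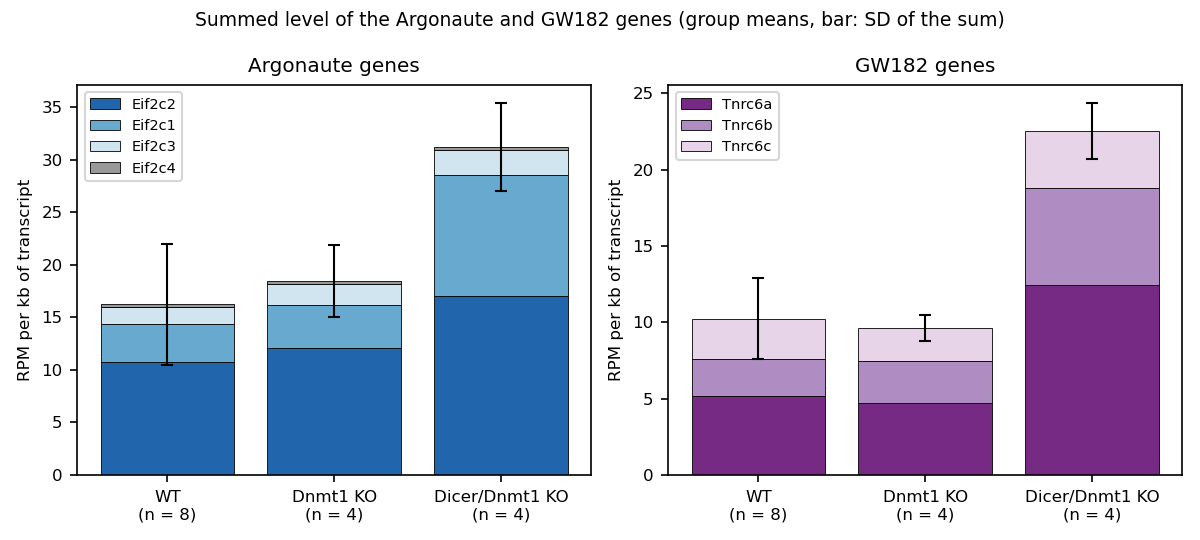
Summed level of the Argonaute genes (left) and GW182 genes (right) in RPM per kb of the longest transcript, as stacked group means with the SD of the sum as the error bar. The bar of Dicer/Dnmt1 KO reaches 31.2 for the Argonaute genes and 22.5 for the GW182 genes, against 16.3 and 10.2 in WT.

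The GW182 genes, which link Argonaute to the silencing enzymes, also were higher in Dicer/Dnmt1 KO. Tnrc6a (ENSMUSG00000052707, chromosome 7, 130267770 to 130338802, plus strand, 21 exons) measured 6.64, 6.70, 6.58 and 6.54 there, 5.10, 5.23, 5.33 and 5.22 in Dnmt1 KO, and 4.60 to 5.65 in WT with a median of 5.45. The gap between Dicer/Dnmt1 KO and the highest other library was wider than the whole Dnmt1 KO range. Tnrc6a rose by 1.31 against WT (SE 0.16, 2.48-fold, limma adjusted p = 1.75e-06) and by 1.39 against Dnmt1 KO (SE 0.18, 2.63-fold, adjusted p = 1.88e-05). With the length trend removed these were 0.92 and 1.11, and without WT number 4 the change against WT was 1.13.

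Tnrc6b (ENSMUSG00000047888, chromosome 15, 80590016 to 80771516, plus strand, 23 exons) measured 6.82, 6.92, 6.62 and 6.63 in Dicer/Dnmt1 KO. Dnmt1 KO stood at 5.25, 5.50, 5.75 and 5.66, and WT at 4.46 to 5.90 with a median of 5.50. No library of the other groups reached 6. Its rise was 1.43 against WT (SE 0.21, 2.70-fold, limma adjusted p = 1.78e-05) and 1.21 against Dnmt1 KO (SE 0.24, 2.31-fold, adjusted p = 0.000983). It has the longest transcript of the 10 genes (17043 bases), and with the length trend removed the changes were 0.76 and 0.73, both still called. Without WT number 4 the change against WT was 1.18. AC125540.1 overlaps its exons on the same strand, so reads there could belong to either gene.

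Tnrc6c (chromosome 11, 117515603 to 117624753, plus strand) moved less. It measured 5.49, 5.71, 5.23 and 5.31 in Dicer/Dnmt1 KO and 4.14 to 5.35 in WT, with WT 1A and 2A inside the Dicer/Dnmt1 KO range. Against WT the rise of 0.55 (SE 0.18, limma adjusted p = 0.0136) was 0.34 without WT number 4 and 0.01 with the length trend removed (adjusted p = 0.92). Against Dnmt1 KO, whose libraries all lay lower, it rose by 0.81 (SE 0.21, limma adjusted p = 0.00586), and by 0.43 with the length trend removed (adjusted p = 0.0013). Neither rise passed with A and B averaged (limma adjusted p = 0.0949 and 0.095), and that against WT did not without Dicer/Dnmt1 KO 1B (0.46, adjusted p = 0.0597). Its share of the GW182 sum per kb was 24.3% to 27.6% in WT, 21.3% to 23.1% in Dnmt1 KO and 15.3% to 18.1% in Dicer/Dnmt1 KO, while the sum went from 10.2 ± 2.64 in WT and 9.62 ± 0.844 in Dnmt1 KO to 22.5 ± 1.83 RPM per kb.

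**Figure D4:**
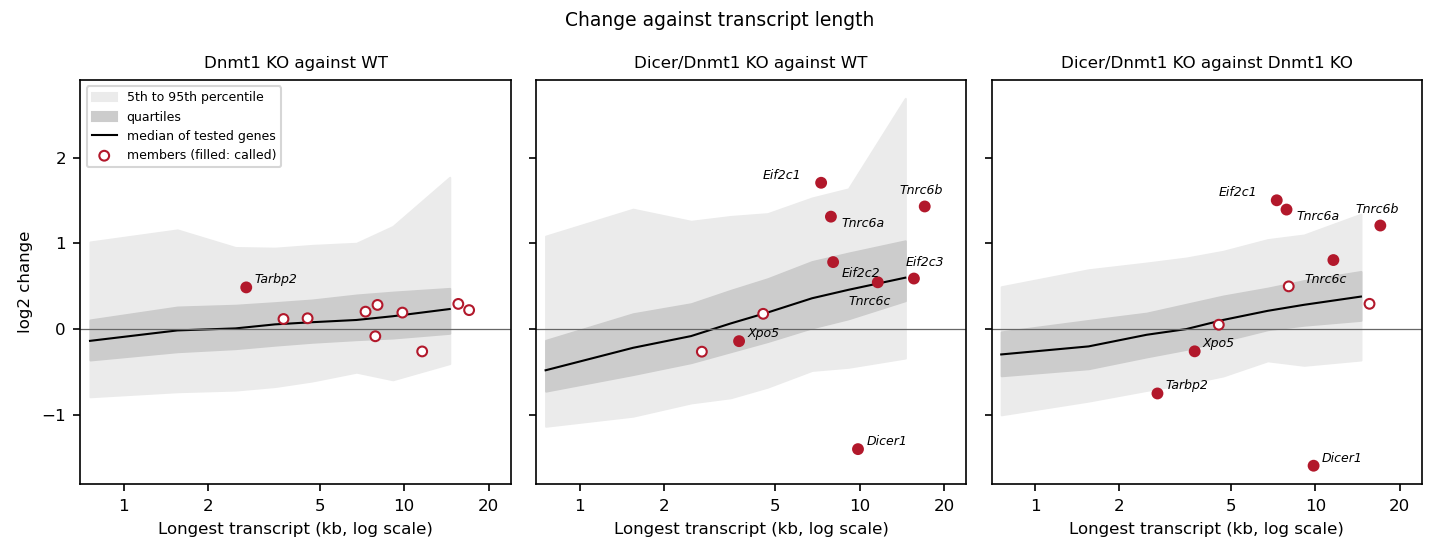
Difference in log2 RPM of the 10 genes (red circles, filled and named where called) against the length of the longest transcript in kb on a log axis, over the median, quartiles and 5th to 95th percentile of tested genes in 8 length bins. For Dicer/Dnmt1 KO against WT the bin median runs from -0.48 below 1000 bases to 0.60 above 12000 bases, with Eif2c3 (0.59) and Tnrc6c (0.55) close to the median of their bins and Eif2c1 above the 95th percentile.

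Transcript length moved with the change over all genes, and its part in these results was not tested beyond the removal of the trend. In Dicer/Dnmt1 KO against WT the share of genes that rose went from 10.6% of those below 1000 bases to 69.0% of those above 12000 bases. Eif2c1 and Tnrc6a, at 7278 and 7887 bases, belong to a bin of 969 genes with a median change of 0.36 and a 95th percentile of 1.53, so Eif2c1 lay above that percentile and Tnrc6a within it. Against Dnmt1 KO both lay above the 95th percentile of the same bin, which was 1.04. Tnrc6b lay within the 5th to 95th percentile of its bin in both comparisons, at 1.43 beside a 95th percentile of 2.69 against WT and at 1.21 beside 1.34 against Dnmt1 KO. Over the 16 alternatives other than leaving out single libraries, Eif2c1 and Tnrc6a kept their call and direction in both comparisons. Tnrc6b did so in 16 of 16 against WT and in 14 of 16 against Dnmt1 KO, the exceptions being libraries of letter A alone (limma adjusted p = 0.0591) and of letter B alone (adjusted p = 0.0621).

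Compared per kb within a group, the level of the 10 genes had the same top in each group. Xpo5 was highest, with a mean of 23.3 RPM per kb in WT, 25.3 in Dnmt1 KO and 21.1 in the libraries that had lost both genes, followed by Eif2c2 with 10.7, 12.1 and 17.0. In WT, after Xpo5, the ranges of neighbours overlapped in the order Eif2c2, Dgcr8, Tarbp2, Tnrc6a, Dicer1, Eif2c1, Tnrc6c, Tnrc6b and Eif2c3. The genes share their libraries, so overlapping ranges do not show that neighbours were alike. In every WT library Tnrc6a was above Dicer1, Dicer1 above Eif2c1, Eif2c1 above Tnrc6c, and Tnrc6b above Eif2c3. In Dicer/Dnmt1 KO Tnrc6a (12.4) and Eif2c1 (11.5), which overlapped, came next and Dgcr8 (10.5) overlapped Eif2c1, while Dicer1 was last (1.49). With the length of all merged exons in place of the longest transcript, Tarbp2 moved below Tnrc6a in WT and below Tnrc6b in Dicer/Dnmt1 KO, and Tnrc6b above Tnrc6c in WT.

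The 3′UTRs of the 10 genes were searched for the seeds printed above. A match was AGCACTT or GCACTTA for the miR-290 family and GCACTTT or CACTTTA for the miR-17 family, on the sense strand of the longest annotated 3′UTR (GENCODE M1, NCBIM37), and the motifs share letters so that 1 place can count for both families. Eif2c1 held 2 matches for each family in 4491 bases. Of the 871 tested genes with a 3′UTR of similar length (0.8 to 1.25 times), 48.9% held a match for miR-290 and 15.0% held as many. For miR-17 the shares were 51.0% and 17.0%. The 4 places in Eif2c1 are shown with the match in capitals, on the minus strand at chr4:126116051-126116078, chr4:126112537-126112564, chr4:126115763-126115790 and chr4:126112492-126112519 in that order.
Eif2c1 miR-290 first: aggcactatgGCACTTAgctctgaggtg
Eif2c1 miR-290 second: gtatgatgttGCACTTAgcagccatgtg
Eif2c1 miR-17 first: attgacatttGCACTTTcagacgtgaca
Eif2c1 miR-17 second: ctctgggtttCACTTTAttttctaaact

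Tnrc6b held 2 matches for each family in a 3′UTR of 11610 bases, where 96.0% of the 25 genes of similar length held one for miR-290 and 92.0% one for miR-17. As many as Tnrc6b were held by 68.0% and 60.0% of them. Eif2c3 held 3 for each family in 12742 bases, of which 2 for miR-290 were 8 letters long (AGCACTTA), at chr4:126015545-126015572 and chr4:126012749-126012776, minus strand. Of its 17 similar genes 94.1% held one for miR-290 and 88.2% one for miR-17, and 41.2% and 29.4% held as many as Eif2c3.
Eif2c3 miR-290 first: ctttaattgcAGCACTTAagaggcagag
Eif2c3 miR-290 second: aaatgttaagAGCACTTAttgtgctgtc
Tnrc6a held none for miR-290 and 1 for miR-17 in 2337 bases, where 31.1% and 31.6% of the 2074 similar genes held one, at chr7:130337123-130337150 on the plus strand.
Tnrc6a miR-17: gacgggccctGCACTTTgaacaggcttt
Tnrc6c held 1 for each (33.3% and 35.7% of similar genes), Eif2c2 none for miR-290 and 1 for miR-17 (57.7% and 59.0%), and Dicer1 1 for miR-290 and none for miR-17 (42.5% and 46.7%). Dgcr8, Xpo5 and Tarbp2 held none. Over all 12325 tested genes with a 3′UTR, whose median length was 1192 bases, 20.05% held a match for miR-290 and 21.2% one for miR-17. The 7 genes with a match had 3′UTRs of 2337 to 12742 bases and the 3 without one of 28 to 1574 bases. A match is a run of letters, not a measured site.

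Beside these 10, 52 other genes of the pathway were examined, from cofactors of the Microprocessor to decapping and deadenylation. When Dnmt1 alone was lost 4 rose and 9 fell against WT, that is 13 of 52 in either direction, beside 41.0% of all tested genes. With Dicer1 also lost 8 rose and 8 fell against WT, that is 16 of 52 beside 61.9%. Against Dnmt1 KO 8 rose and 4 fell, that is 12 of 52 beside 36.3%. The median change was 0.02, 0.11 and 0.05 on the log2 scale, beside 0.04, 0.02 and -0.01 over all tested genes. In Dnmt1 KO the genes past a change of 0.5 were Prkra, given above, and Dcp1b, a cofactor of the decapping enzyme, which fell by 0.80 (limma adjusted p = 0.00283). Drosha, the nuclease of the Microprocessor, ran from 5.31 to 6.59 in WT, with 6.16 to 6.52 for Dnmt1 KO and 6.25 to 6.69 for Dicer/Dnmt1 KO, and was not called.

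**Figure D5:**
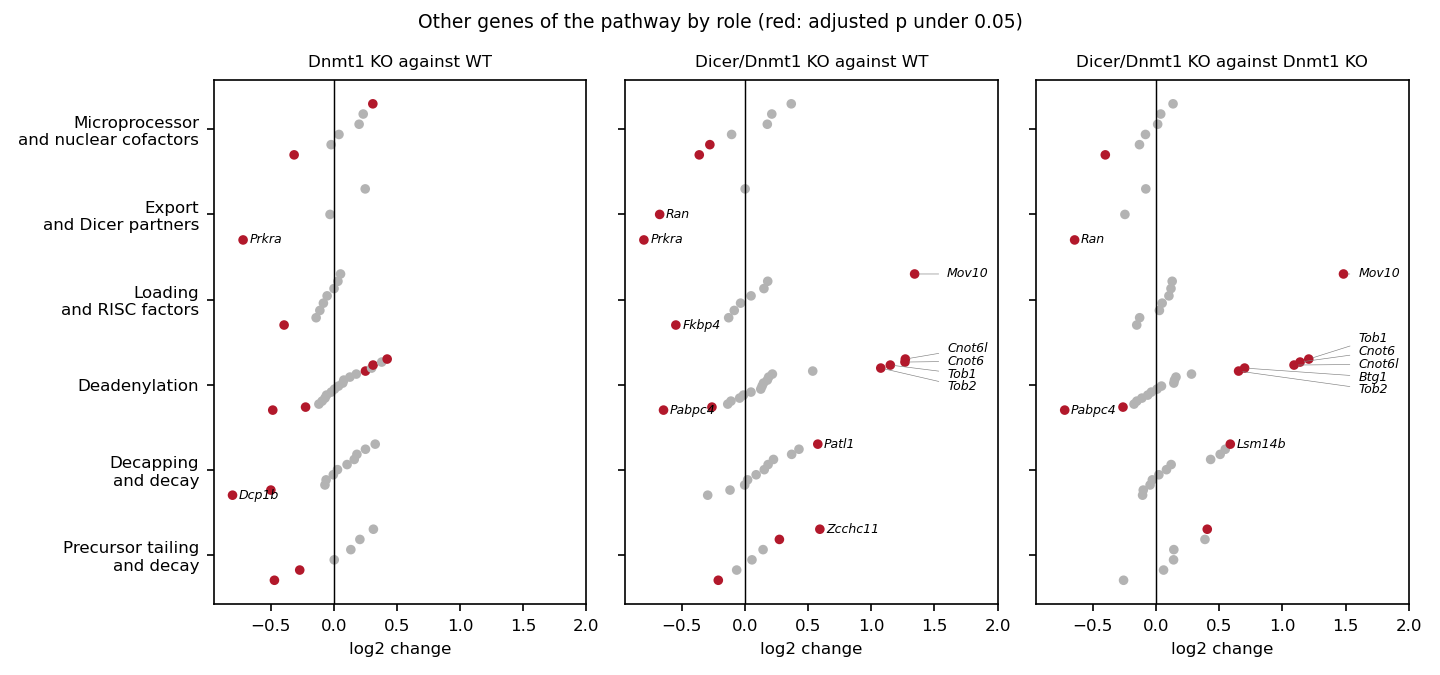
Difference in log2 RPM of the 52 other pathway genes, in rows by role and sorted within a row, for each comparison, red where called and named where called with a change of at least 0.5. In both comparisons of Dicer/Dnmt1 KO the points furthest right are Mov10 and the deadenylation genes Cnot6, Cnot6l and Tob1.

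Among genes that rose in Dicer/Dnmt1 KO, Mov10, an RNA helicase that binds Argonaute, measured 6.44, 6.59, 6.29 and 6.25, above the 4.77 to 5.04 of Dnmt1 KO and the 4.29 to 5.67 of WT. Mov10 rose by 1.34 against WT (SE 0.19, limma adjusted p = 1.45e-05) and by 1.48 against Dnmt1 KO (SE 0.22, adjusted p = 8e-05). Cnot6 and Cnot6l encode the interchangeable CCR4 nucleases of the deadenylase complex that GW182 recruits. Cnot6 measured 6.50 to 6.75 in Dicer/Dnmt1 KO beside 5.25 to 5.66 (Dnmt1 KO) and 5.04 to 5.55 (WT), and rose by 1.27 and 1.14 (limma adjusted p = 2.23e-08 and 2.82e-06). Cnot6l measured 5.63 to 5.73, 4.34 to 4.71 and 3.99 to 4.68, and rose by 1.27 and 1.09 (limma adjusted p = 7.64e-08 and 1.19e-05). For Mov10, Cnot6 and Cnot6l, Dicer/Dnmt1 KO overlapped neither of the other groups.

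Tob1 and Tob2, adaptors between the deadenylase and poly(A) binding protein, rose by 1.15 and 1.08 against WT (limma adjusted p = 3.4e-05 and 1.84e-06) and by 1.21 and 0.65 against Dnmt1 KO (adjusted p = 0.00026 and 0.00253). Against WT, Patl1, a decapping activator, and Zcchc11, which adds uridines to precursors, rose by 0.58 and 0.59. Against Dnmt1 KO, Btg1, a relative of Tob1, and Lsm14b, an RNA granule protein, rose by 0.70 and 0.59. Both had been lower in Dnmt1 KO than in WT, by 0.48 and 0.50 (limma adjusted p = 0.00190 and 0.000152), and their differences between Dicer/Dnmt1 KO and WT were 0.22 and 0.09 (adjusted p = 0.0945 and 0.372). Of the 18 deadenylation genes 4 rose against WT, where 31.9% of all tested genes rose, and 5 against Dnmt1 KO, where 16.9% rose. The other 14 and 13 did not rise by the test.

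Genes that fell in Dicer/Dnmt1 KO past a change of 0.5 were few. Prkra, given above, fell most against WT among the 52, by 0.80. Ran, the GTPase whose bound form lets exportin-5 hold its cargo, fell by 0.68 against WT (limma adjusted p = 0.00042) and 0.65 against Dnmt1 KO (adjusted p = 0.0044). Pabpc4, a cytoplasmic poly(A) binding protein, fell by 0.65 and 0.72 (limma adjusted p = 8.58e-05 and 0.000336). Fkbp4, a cochaperone of HSP90, fell by 0.55 against WT (limma adjusted p = 7.16e-05).

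Over the 16 libraries, the genes whose log2 RPM followed 1 of the 10 most closely were taken for the 3 with the widest range of group means. For Eif2c1 these were Ankrd52 (Pearson r = 0.99), Sbno1 (r = 0.99) and Cc2d1a (r = 0.99), for Dicer1 Pabpc4 (r = 0.97), Tdg (r = 0.97) and Isg20l2 (r = 0.97), and for Tnrc6b Wdfy3, Etv6 and Mast2 (r = 0.99 each). The mean of Ankrd52 was 3.26 for WT, 3.67 for Dnmt1 KO and 5.95 for Dicer/Dnmt1 KO. These correlations describe libraries that share the difference between groups and the length trend, and were chosen as the highest of all tested genes.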

How the data were processed

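The 10 genes and the lists beside them were proposed with earlier results of these data known, although the rule that takes them uses only names. The authors trimmed reads with Trim Galore 0.3.5, aligned them to NCBIM37 with TopHat2 2.0.11 (versions per the submitters' processing notes, which name GRCm38 as well) and quantified genes in SeqMonk. The deposited values are log2 RPM, 1 column per library. The same table holds 35 columns that match none of the 16 libraries, and no value was read from them. On the linear scale, over 99.99% of values above 0 were whole reads within 0.1 read, and a gene without reads is written as 0.9 read. Totals recovered in this way are the depths given.

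From these values, limma 3.58.1 in R 4.3.3 fitted 3 group means to all 16 libraries with an intensity trend in the variance, over 12892 genes above 1 RPM in at least 4 libraries. Benjamini-Hochberg adjusted p-values under 0.05 were called. The authors' DESeq2 test needs counts and was not run on log2 values. The fit was also run on simulated data with independent libraries, which cannot show how it behaves when libraries of 1 number correlate. Named were the 10 genes, Drosha, Eif2c4 and Prkra, other pathway genes called with a change of at least 0.5, and 3 genes most correlated with each of 3 members. The deposited table matched all 52 other pathway genes, 1 by a RefSeq synonym. Coordinates count from 1, and lengths and exon numbers are those of the longest GENCODE M1 transcript. MicroRNA sequences came from RefSeq. Alternatives changed the scaling, pseudocount, filter, WT libraries, unit of replication, length trend and single libraries.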

Additional observations from a re-analysis of the deposited data

How the results depend on the processing

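Over 960 values of the 10 genes under alternatives, 18 changed sign with all libraries of a setting kept and 1 when single libraries were left out. All 19 belonged to changes that had not passed the test, except Eif2c3 against WT with the length trend removed. Under the replicate block (number and letter) and, equally, with WT numbers 1 and 2 only, Dnmt1 KO against WT gave -0.068 for Dicer1, -0.067 for Eif2c1, -0.20 for Eif2c2 and -0.13 for Tnrc6b, and without WT number 4 it gave -0.0060, -0.019, -0.053 and -0.028. With WT numbers 3 and 4 only it gave 0.20 for Tnrc6a and 0.020 for Tnrc6c. Dicer/Dnmt1 KO against Dnmt1 KO gave -0.048 for Dgcr8 with letter A, -0.066 for Dgcr8 and -0.16 for Eif2c3 with the length trend removed, and for Dgcr8, with single libraries left out, -0.026 (without Dnmt1 KO 1B) to 0.093. Against WT Eif2c3 gave -0.053 with the length trend removed.

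Of the 10 genes, 1 was called in Dnmt1 KO against WT, and 0 with A and B averaged, with letter A or B alone or at 1.5-fold or more, 2 with the length trend removed, 3 under the replicate block, with WT numbers 1 and 2 or without WT number 4, and 6 with WT numbers 3 and 4. Dicer/Dnmt1 KO against WT (8) gave 5 with A and B averaged, with letter A alone and with the length trend removed. It gave 9 with median centring and with WT numbers 3 and 4 only. Against Dnmt1 KO (7) letter A gave 4 and letter B 3. That comparison gave 9 when only the groups compared were fitted, with WT numbers 1 and 2 only and without WT number 4. The number as a random block gave 1, 6 and 6 over the 3 comparisons. Counts for Dicer/Dnmt1 KO include Dicer1, the deleted gene. Leaving out single libraries gave 1 to 2, 5 (without Dicer/Dnmt1 KO 1B) to 10 (without WT 1A), and 7 throughout. Shares of all tested genes are given only for the main fit and for A and B averaged. In this section the other counts therefore cannot be set against all genes.

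The 52 other genes had 13, 16 and 12 calls, where 41.0%, 61.9% and 36.3% of all tested genes were called. A and B averaged gave 4, 9 and 7 (17.7%, 39.8% and 9.50% of all genes), letter A 2, 8 and 5, and letter B 2, 9 and 5. The number as a random block gave 8 in Dnmt1 KO against WT, WT numbers 3 and 4 gave 25 and 29 in the comparisons with WT, the length trend removed 26 in Dicer/Dnmt1 KO against WT, 1.5-fold 2 and 9, and fitting only the groups compared 19 between the knockouts. Leaving out single libraries gave 10 to 14, 14 to 21 and 10 to 15. Shares of all genes under the other settings are not given, so whether calls over all genes moved alike is not known. Causes of these differences were not tested.

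Across groups, libraries of the same number and letter correlated at -0.26 to 0.34 in their deviations. The correlation was above 0.1 for 3 of 4 pairs of Dicer/Dnmt1 KO with WT but not for every pair, so the numbers were not taken as pairs, and the replicate block, which called 3, 6 and 9 of the 10 genes, is given here only. Within a group A and B of 1 number were closer than other libraries, except for WT number 1. There the SD of the log2 difference was 0.359 between 1A and 1B and 0.354 between 1B and 3B. The fitted correlation between libraries of 1 number was 0.667, so that p-values from 16 separate libraries may be too small. Neither the meaning of A and B nor the share of counting error in the spread is known.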
